A study of Mus musculus with 8 samples.

Results

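In mouse embryonic stem cells of the J1 line, 45 genes were nearly silent in the control and on in both libraries labelled eIF4A3 knockdown with Ccnb1 overexpression. They were chosen from 37310 genes by the counts themselves. Each had at most 3 reads in each control library and at least 5 CPM (the gene's reads over all gene reads of the library, on the customary CPM scale) in each library labelled knockdown with Ccnb1. Of 21017 genes with at most 3 reads in both controls, 50 met the rule. The rule then dropped 4 Zscan4 and Usp17l genes (Zscan4f, Usp17la, Usp17ld and Usp17le) and Foxa2, a lineage transcription factor, and no imprinted gene met it. Thus the difference between the control and the Ccnb1 group chose these genes, and it is given here as a description without a test.

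The study, titled as a screen of RNA helicases, asked about eIF4A3 in embryonic stem cell identity, and poly-A RNA was sequenced in 8 libraries. All J1 cells are of the 129S4/SvJae strain and gave 3 groups of 2 libraries, which were control knockdown with control overexpression (control), eIF4A3 knockdown with control overexpression, and eIF4A3 knockdown with Ccnb1 overexpression. A second line, CCE (strain 129/Sv), is present as 2 libraries labelled eIF4A3 knockdown, with no control of that line analysed here. All groups were feeder-free cells in serum with LIF, transfected and then given lentivirus, with puromycin at 1 µg/mL over 2.5 days and harvest at day 4.5, so the control carries the transfection, the infection and the selection too. Whether paired libraries stem from separate cultures is not given, so p-values measure the spread between these libraries, which may be technical.

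A few cells in a culture of mouse embryonic stem cells pass at any time into a state that resembles the 2-cell embryo, when the embryo first transcribes its own genome. In that state the factor Dux and its targets are transcribed, among them MERVL retrotransposons and the Zscan4, Tdpoz, Usp17l and Zfp352 genes, which are silent in most other cells of the culture. A further class of genes kept silent in these cells is the germline genes, used in meiosis and sperm, which are held off by DNA methylation and Polycomb-type repressors. In bulk RNA, fewer cells with a transcript and less of the transcript per cell cannot be told apart.

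The libraries held 3596615 to 8340023 gene counts in J1 and 23966825 and 25574740 in CCE, so that 3 reads equal 0.360 to 0.834 CPM in J1 libraries and 0.117 to 0.125 CPM in CCE libraries. Eif4a3, the RNA helicase of the exon junction complex, had control levels of 73.5 and 83.7 CPM, labelled knockdown levels of 75.7 and 37.5 CPM, Ccnb1 group levels of 47.3 and 53.5 CPM and CCE levels of 48.8 and 53.9 CPM. In CPM over all gene counts, replicate 1 of the labelled knockdown therefore lay within the control range, against its label. The TMM scaling used in the tests below lowers the level of this library and raises those of both controls. Its place within the control range thus depends on the scaling, and under TMM scaling it lies below both controls. Ccnb1, which encodes cyclin B1, stood between 101 and 136 CPM over the J1 libraries, whereas the copy annotated as Ccnb1-ps stood at 267 and 283 CPM in the libraries labelled Ccnb1 against 25.2 to 33.3 CPM elsewhere in J1. Paired libraries differed by 23.2 times the Poisson variance in the labelled knockdown, 3.37 times in control and 1.9 times in the Ccnb1 group, and unaligned reads made up 40.8% and 45.2% in the labelled knockdown and 15.7% to 15.9% in the other J1 libraries. The 10 pluripotency markers had reads in all 8 libraries, with summed levels of 8523 and 8569 CPM in control, 3869 and 4228 in the labelled knockdown, 8130 and 8161 in the Ccnb1 group and 4168 and 4532 in CCE. Fibroblast and feeder markers summed to 50.1 to 117 CPM over J1 libraries. What part the depth, the unaligned share or the spread plays in the results below was not tested.

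The 45 genes together took 4.88 and 4.20 CPM in the control libraries, 92.8 and 138 CPM in the libraries labelled knockdown, and 752 and 750 CPM in the libraries labelled Ccnb1. In CCE they took 139 and 84.0 CPM. Of the 45, 21 had no read in either control library and 24 had 1 to 6 reads over both. The paired libraries of the Ccnb1 group gave levels within 1.5 times of each other for 42 of the 45. A symbol was found for 34 genes and 11 are known here by identifier only. By length, 34 genes could be compared, and their levels in the Ccnb1 group ran from 0.644 CPM per kb for Med12l to 41.3 CPM per kb for Gm2016.

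**Figure D1:**
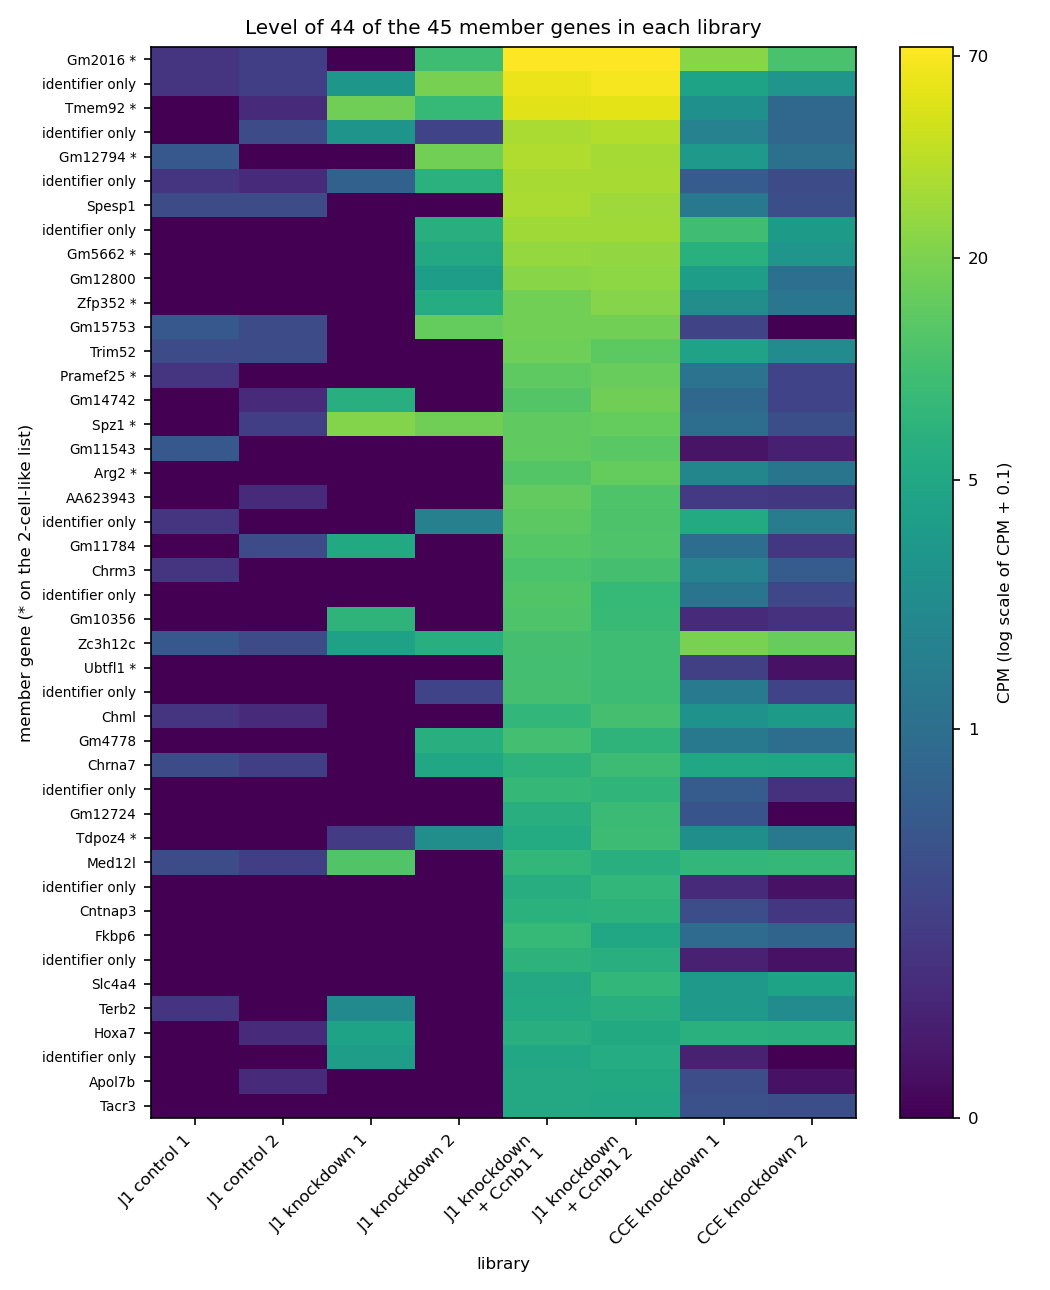
Level of 44 of the 45 genes (rows, ordered by mean level in the Ccnb1 group, those on the 2-cell-like list marked with a star) in the 8 libraries (columns), in CPM on a log colour scale of CPM + 0.1. The control columns are dark throughout, the 2 Ccnb1 columns are at or above 5 CPM by the rule, the 2 labelled knockdown columns differ from each other gene by gene, and CCE replicate 1 is brighter than replicate 2 in 39 rows.

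**Figure D2:**
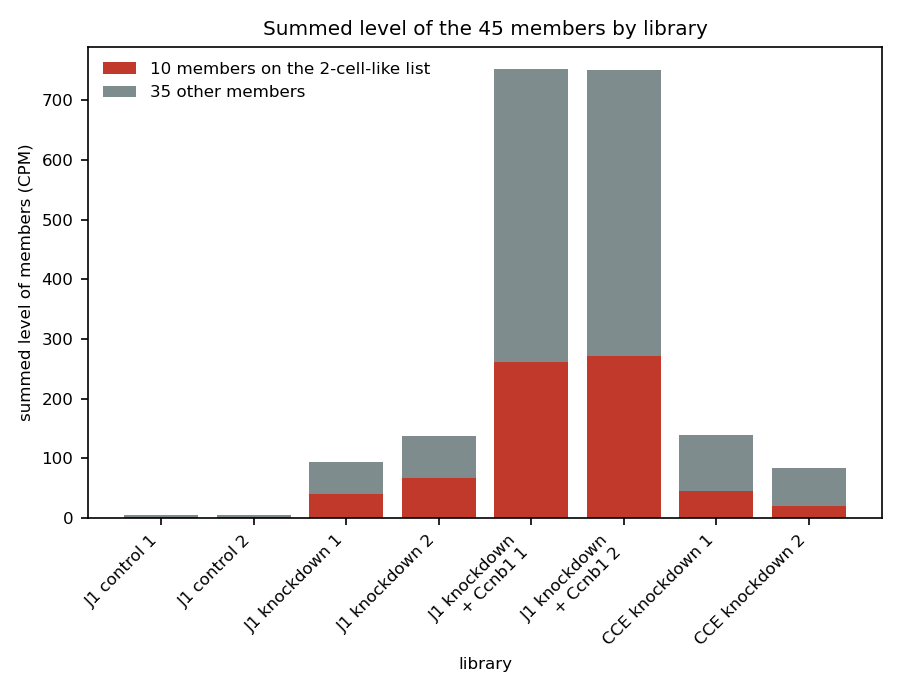
Summed level (CPM) of the 45 genes in each library, split into the 10 genes on the 2-cell-like list (red) and the 35 others (grey). The 2-cell-like genes make up 34.8% and 36.2% of the sum in the Ccnb1 libraries, 42.9% and 48.4% in the labelled knockdown libraries, and 32.4% and 24.3% in CCE.

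The rule run the other way found few genes between control and Ccnb1: 1 gene had at most 3 reads in both Ccnb1 libraries and at least 5 CPM in both controls, against the 50 in the direction described here. Between control and the labelled knockdown, 44 genes were silent in control and at 5 CPM or more in both labelled knockdown libraries, and 90 were silent in the labelled knockdown and at 5 CPM or more in both controls. From the labelled knockdown to the Ccnb1 group the number was 234, and from the Ccnb1 group to the labelled knockdown it was 35. These counts share libraries and are set side by side only.

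The genes nearest the threshold show how the rule drew its border. Just inside were a gene known by identifier only, with a lower Ccnb1 library at 5.11 CPM, and Tacr3 and Fkbp6 at 5.14 CPM each. Just outside were Pdlim3, Bmper and Spag16, each at 4.94 CPM in the lower library. At the other border, 8 of the 45 genes had exactly 3 reads in the higher control library, and 8 further genes missed the rule with exactly 4.

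RefSeq promoter sequences (build GRCm38.p6, the 250 bases before the start) were found for 20 of the 45 genes and gene models (GENCODE M21) for 34 (75.6%), so a comparison of promoter content or gene structure over all 45 is void. Over the 20, the number of CG dinucleotides ran from 0 to 44. Those of Spz1, a basic helix-loop-helix factor of sperm development, and Zfp352, a zinc finger gene of the 2-cell stage, hold 0 and 2 CG dinucleotides, those of Chrna7, a nicotinic acetylcholine receptor subunit, and Zc3h12c, a CCCH zinc finger protein, 25 and 33, and the median over all 17066 promoters is 11. They lie at chr13:92576233-92576482 (minus strand), chr4:90218570-90218819 (plus strand), chr7:63212527-63212776 (minus strand) and chr9:52168407-52168656 (minus strand), and are shown 5′ to 3′ with CG in capitals to let low and high CG content be seen in genes described below.
Spz1: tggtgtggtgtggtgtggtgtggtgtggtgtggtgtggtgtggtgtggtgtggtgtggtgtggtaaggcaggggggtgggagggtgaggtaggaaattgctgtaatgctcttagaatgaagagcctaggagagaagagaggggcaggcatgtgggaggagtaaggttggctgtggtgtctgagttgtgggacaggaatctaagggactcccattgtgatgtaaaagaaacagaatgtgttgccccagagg
Zfp352: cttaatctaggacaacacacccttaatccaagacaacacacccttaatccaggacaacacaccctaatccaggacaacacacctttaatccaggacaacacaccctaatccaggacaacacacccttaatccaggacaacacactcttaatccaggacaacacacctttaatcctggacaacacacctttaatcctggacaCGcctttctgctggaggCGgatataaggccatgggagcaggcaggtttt
Chrna7: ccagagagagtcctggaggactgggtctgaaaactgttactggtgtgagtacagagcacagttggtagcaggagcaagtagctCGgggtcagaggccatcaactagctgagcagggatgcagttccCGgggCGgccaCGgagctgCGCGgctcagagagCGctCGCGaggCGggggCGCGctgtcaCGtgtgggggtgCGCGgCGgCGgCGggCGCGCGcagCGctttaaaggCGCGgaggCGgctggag
Zc3h12c: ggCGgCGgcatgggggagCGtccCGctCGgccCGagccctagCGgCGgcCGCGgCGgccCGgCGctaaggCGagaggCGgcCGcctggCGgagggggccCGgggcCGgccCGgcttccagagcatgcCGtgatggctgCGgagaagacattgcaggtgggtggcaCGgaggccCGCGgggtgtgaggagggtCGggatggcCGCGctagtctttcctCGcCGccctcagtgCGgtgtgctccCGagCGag
The promoter of Chrna7 also holds the letters CACGTG (a palindrome, searched on both strands), as does that of Fkbp6. The same letters are in 7.04% of all promoters of this length.

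The 2-cell-like list, which leaves out Zscan4, Tcstv and Usp17l, had 33 genes in the files, 22 of them silent in control, and 10 of those were among the 45: Gm2016, Tmem92, Gm12794, Gm5662, Zfp352, Spz1, Pramef25, Arg2, Ubtfl1 and Tdpoz4. Together they took 0.871 and 0.600 CPM in control, 39.8 and 66.7 CPM in the labelled knockdown, 261 and 272 CPM in the Ccnb1 group, and 44.9 and 20.4 CPM in CCE. The rule chose these genes as low in the controls and high in the Ccnb1 libraries, so nothing is read from the order of those groups. The labelled knockdown and CCE libraries, which the rule did not use, overlapped in this sum.

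Gm2016 had the highest level per length of the 34 genes with a gene model, with 1 and 2 reads in control, 0 and 34 in the labelled knockdown, and 72.0 and 73.9 CPM in the Ccnb1 group. The ratio of Ccnb1 to control was 343 (exact 95% interval 117 to 1665, which like every interval and floor here covers counting error only). Transcripts of 16 other genes are at least 90% identical to it over 300 bases or more, and likewise for Gm5662, which follows it 3 places on along chromosome 12, so how their reads were shared out is uncertain. Gm5662 had no read in control, 0 and 19 in the labelled knockdown, and 25.9 and 24.9 CPM in the Ccnb1 group, at least 119-fold above a floor of 3 reads over both controls. Both genes were thus read in the same labelled knockdown library and absent from the other.

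Tmem92, a transmembrane protein gene, had 0 and 1 read in control, 78 and 30 reads (17.7 and 8.34 CPM) in the labelled knockdown, and 54.3 and 55.6 CPM in the Ccnb1 group. Spz1 had 0 and 2 reads in control, 96 and 63 reads (21.8 and 17.5 CPM) in the labelled knockdown, and 14.5 and 15.4 CPM in the Ccnb1 group. For both genes, each labelled knockdown library lay above each control library, and Spz1 is the gene of the 45 whose fitted level was lower in the Ccnb1 group than in the labelled knockdown, by a log2 difference of -0.32 ± 0.59 (SE, edgeR adjusted p = 0.713). Zfp352, whose promoter with 2 CG is shown above, had no read in control, 0 and 21 in the labelled knockdown, and 18.2 and 21.9 CPM in the Ccnb1 group, at least 94.7-fold above the floor.

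Arg2, a mitochondrial arginase, and Ubtfl1, named for its likeness to a nucleolar transcription factor, had no read in the 4 control and labelled knockdown libraries. Arg2 stood at 12.6 and 15.6 CPM in the Ccnb1 group and Ubtfl1 at 10.2 and 9.52 CPM, at least 66.5-fold and 46.2-fold above the floor. Pramef25, named in the PRAME family, had 1 and 0 reads in control, none in the labelled knockdown, and 14.3 and 15.9 CPM in the Ccnb1 group. Unlike Tmem92 and Spz1, these 3 genes of the list were without a read in either labelled knockdown library. Tdpoz4, of the TD and POZ domain family, had no read in control, 1 and 9 in the labelled knockdown, and 5.79 and 9.06 CPM in the Ccnb1 group.

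Genes of 2-cell-like cells that the rule left out moved as follows. Of the 14 other genes on the list that had enough reads to be tested, edgeR called 6 higher and 0 lower in the Ccnb1 group than in control (the smallest adjusted p was 0.00746, for Ddit4l), with a median log2 difference of 2.44, against 9.35% of 14462 genes tested called higher, 10.5% called lower and a median of 0.07. Fgf1, a fibroblast growth factor, rose by 2.96 ± 0.59 (log2, SE) and Nelfa, a subunit of the elongation factor NELF, by 1.24 ± 0.30. In the labelled knockdown against control, 2 of the 14 were higher (Zfp750 by 2.44 ± 0.25 and Ddit4l by 1.81 ± 0.24), 2 were lower (Nelfa by -1.18 ± 0.31 and Eif1a by -0.81 ± 0.20) and the median was 0, against 11.0% called higher, 17.9% called lower and a median of -0.08 over all genes. In the Ccnb1 group against the labelled knockdown, 6 were higher and 2 lower, and the median was 2.23, against 22.8% called higher, 16.0% called lower and a median of 0.14 over all genes. These comparisons share libraries. Pramel7, Gm13078 and Tdpoz3 had no read in control or the labelled knockdown, so they passed the filter through the Ccnb1 group alone. They could only come out higher there, and their fitted log2 values of 6.89 to 7.49 enter the medians of 2.44 and 2.23. Gm13078 is among the 6 called higher against control, and each of these genes is among the 6 called higher against the labelled knockdown. Nothing is read from those calls. The 4 dropped Zscan4 and Usp17l genes together took 0 and 0.360 CPM in control, 5.46 and 45.6 CPM in the labelled knockdown, 169 and 174 CPM in the Ccnb1 group and 35.6 and 9.50 CPM in CCE. They had met the count rule before they were dropped by name, so their low control and high Ccnb1 levels were fixed by it.

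Germline genes gave 2 of the 45, out of 17 on that list that were silent in control. Fkbp6, an FKBP-family protein needed in male meiosis, had no read in control or the labelled knockdown and 8.34 and 5.14 CPM in the Ccnb1 group. Terb2, which tethers telomeres to the nuclear envelope in meiosis, had 1 and 0 reads in control, 10 and 0 in the labelled knockdown, and 5.62 and 6.19 CPM in the Ccnb1 group. Both were near the lower border of the rule. Of the 45 other germline genes tested, edgeR called 6 higher and 3 lower in the Ccnb1 group than in control (median log2 0.83, against 0.07 over all genes), 9 higher and 10 lower in the labelled knockdown than in control (median 0.97 against -0.08), and 11 higher and 5 lower in the Ccnb1 group than in the labelled knockdown (median 0.20 against 0.14). Over all genes tested, 9.35% were called higher and 10.5% lower in the first comparison, 11.0% and 17.9% in the second, and 22.8% and 16.0% in the third. Of the 45, 2 had no read in a compared group in the first comparison, 7 in the second and 5 in the third. The fitted differences of those genes rest on a group without reads. Dazl, an RNA-binding protein of germ cells, was higher in each of the 3 comparisons, by 4.0 ± 0.36, 1.29 ± 0.35 and 2.72 ± 0.34 (log2, SE). It does not stand for the list. Among the 10 called lower in the labelled knockdown than in control were Dnmt3l by -1.10 ± 0.08 and Rpl10l by -1.12 ± 0.18.

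A gene of sperm outside both lists, Spesp1 (sperm equatorial segment protein), had 2 and 3 reads in control, none in the labelled knockdown, and 31.7 and 28.2 CPM in the Ccnb1 group, a ratio to control of 84.1 (exact 95% interval 35.7 to 260.5). Trim52, of the TRIM family, had the same 2 and 3 reads in control and none in the labelled knockdown, and reached 17.2 and 13.7 CPM. Thus neither had a read in the labelled knockdown, whereas Spz1 stood there at its highest.

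Receptors of nerve cells were also among the 45, although no gene of the neural marker list was. Chrm3, a muscarinic acetylcholine receptor, had 1 and 0 reads in control, none in the labelled knockdown and 11.2 and 10.4 CPM in the Ccnb1 group. Tacr3, the neurokinin B receptor, had no read in control or the labelled knockdown and 5.28 and 5.14 CPM. Chrna7, whose CG-rich promoter is printed above, was the exception among these receptors, with 2 and 2 reads in control and 0 and 18 in the labelled knockdown, and it stood at 6.98 and 9.06 CPM in the Ccnb1 group. Slc4a4, a sodium bicarbonate cotransporter, and Cntnap3, a cell adhesion protein of the contactin-associated family, had no read in control or the labelled knockdown. Slc4a4 stood at 5.28 and 7.85 CPM and Cntnap3 at 6.64 and 7.10 CPM in the Ccnb1 group.

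Zc3h12c, of the regnase family of RNA-binding nucleases, had 3 reads in each control library, 19 and 23 in the labelled knockdown (4.32 and 6.39 CPM), and 10.4 and 9.52 CPM in the Ccnb1 group, a ratio to control of 23.3 (exact 95% interval 10.4 to 64.7). It had the smallest ratio among the 24 genes with a read in control. Med12l, a paralog of the Mediator subunit Med12, had 2 and 2 reads in control, 53 and 0 in the labelled knockdown, and 7.83 and 6.34 CPM in the Ccnb1 group. Hoxa7, a homeobox factor of the body axis, had 0 and 1 read in control, 20 and 0 in the labelled knockdown, and 6.30 and 5.44 CPM in the Ccnb1 group. Med12l and Hoxa7 were thus on in replicate 1 of the labelled knockdown, whereas Chrna7 was on in replicate 2. Chml, a Rab escort protein, had 1 read in each control library, none in the labelled knockdown and 7.83 and 10.6 CPM in the Ccnb1 group. Apol7b, of the apolipoprotein L family, had 0 and 1 read in control, none in the labelled knockdown and 5.28 and 5.44 CPM.

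Some of the 45 lie side by side in the GENCODE M21 gene order. Tmem92 on chromosome 11 is followed 2 and 3 places on by AA623943 and Gm11543, both annotated as unprocessed pseudogenes. In the Ccnb1 group AA623943 stood at 15.2 and 11.9 CPM and Gm11543 at 14.8 and 13.6 CPM, but neither had a read in the labelled knockdown, where Tmem92 had 78 and 30. Gm12800 and Gm12794 are direct neighbours on chromosome 4, and Gm12800 had no read in control, 0 and 14 in the labelled knockdown and 22.7 and 24 CPM in the Ccnb1 group. Gm12794, of the 2-cell-like list, had 3 and 0 reads in control, 0 and 64 in the labelled knockdown and 33.6 and 30.2 CPM. Of the 34 genes with a gene model, 17 have a transcript that resembles that of another gene, so the counts of Gm12794, Gm12800, Zfp352, Pramef25 and Tdpoz4, among others, are uncertain.

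The genes named next are predicted genes. Gm15753 had 3 and 3 reads in control, 0 and 56 in the labelled knockdown and 18.1 and 18.0 CPM in the Ccnb1 group. Gm14742, annotated as a lincRNA and the 1 gene of the 34 on the X chromosome, had 0 and 1 read, then 28 and 0, then 12.4 and 17.5 CPM. Gm11784, Gm10356, Gm4778 and Gm12724 lay between 6.13 and 12.8 CPM in the Ccnb1 group, and each was at 0 in at least 1 labelled knockdown library. Among the 11 genes known by identifier only, ENSMUSG00000091647 was the highest, with 1 and 2 reads in control, 14 and 68 in the labelled knockdown and 61.5 and 66.9 CPM in the Ccnb1 group. The highest of the 11 in CCE, at 9.68 and 3.52 CPM there, was ENSMUSG00000071217, which had no read in control, 0 and 22 in the labelled knockdown and 28.4 and 28.5 CPM in the Ccnb1 group.

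In the libraries labelled knockdown, the 45 genes were on in a patchwork: 7 had a read in both libraries, 7 in replicate 1 alone, 11 in replicate 2 alone, and 20 in neither. A level of at least 1 CPM in both was reached by 4 (8.89%) of the 45. Over all 37310 genes the share was 30.7%, and over the 20967 other genes silent in control it was 0.663% (139). The latter had missed the 5 CPM border of the rule in the Ccnb1 group. When 1 library has 53 reads of Med12l and the other none, or 64 of Gm12794 against none, the libraries of the pair differ by far more than counting error.

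All 45 genes passed the filter on low counts, which they did through the Ccnb1 group, where they were chosen to be high. In the labelled knockdown against control, edgeR called 4 of the 45 higher and 0 lower, beside 28.9% of 14462 genes called in all, 11.0% called higher and 17.9% called lower. This count is no larger a share than the background, and the control side was chosen to be low. At an unadjusted p under 0.05, 9 were higher and 2 lower, for which the share over all genes was not computed, so nothing is read from these numbers. DESeq2 called 13 higher and 0 lower, beside 40.3% of all genes called, 18.0% higher and 22.4% lower. The 4 were Tmem92 (edgeR adjusted p = 0.00297), Spz1 (0.00421), ENSMUSG00000091647 (0.0195) and Zc3h12c (0.0206), and Zc3h12c was higher by a log2 difference of 3.40 ± 0.71 (SE, higher in 2 of 2 libraries). Without either control library, or without either Ccnb1 library, 2 of the 4 calls were left, and without labelled knockdown replicate 1 or 2 the calls numbered 16 and 12. The share of all genes called was 4.36% to 10.2% in the former fits and 62.8% and 65.8% in the latter. Tmem92 and Spz1 kept an adjusted p under 0.05 in each of these fits, and Zc3h12c did not when a control or Ccnb1 library was left out (adjusted p 0.125 to 0.152).

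In the Ccnb1 group against the labelled knockdown, 26 of the 45 were called higher and 0 lower by edgeR, beside 38.8% of all genes called, 22.8% higher and 16.0% lower. Nothing is read from this count, since the Ccnb1 side was chosen to be high. At an unadjusted p under 0.05, 27 were higher and 0 lower, for which the share over all genes was not computed either. DESeq2 called 26 higher and 0 lower, beside 48.8% of all genes called, 27.4% higher and 21.4% lower. Tmem92 was higher by 2.15 ± 0.46 (log2, SE, edgeR adjusted p = 0.0160), and it no longer passed the threshold without Ccnb1 replicate 1 or 2. Its p-value too rests on a side chosen to be high, so nothing is read from it. The count rested on which libraries were in the fit: it was 1 without either Ccnb1 library, 12 without either control library, and 40 and 39 without labelled knockdown replicate 1 and 2. The share of all genes called moved with it, from 10.5% and 10.6% without a Ccnb1 library and 18.4% and 18.5% without a control library to 67.7% and 71.3% without a labelled knockdown library. In the Ccnb1 group against control, the contrast that chose the genes, 19.8% of all genes were called.

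**Figure D3:**
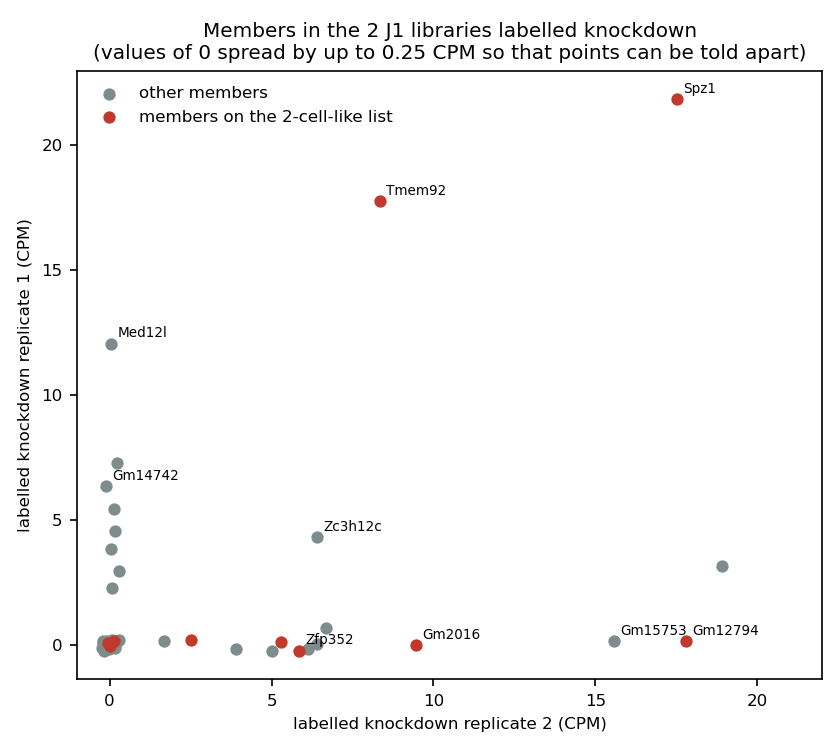
Level of each of the 45 genes in labelled knockdown replicate 2 (x axis, CPM) and replicate 1 (y axis, CPM), with genes on the 2-cell-like list in red and values of 0 spread by up to 0.25 CPM. Most points lie along 1 of the axes or at the origin. Spz1 (21.8 CPM in replicate 1 and 17.5 in replicate 2) and Tmem92 (17.7 and 8.34 CPM) stand farthest from both axes. Others lie off both too, such as ENSMUSG00000091647 (3.18 and 18.9 CPM) and Zc3h12c (4.32 and 6.39 CPM).

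The reads of the CCE libraries were counted another way, with no unaligned row entries. Reads outside genes made up 48.5% and 49.5% there, against 11.9% to 13.9% in J1. The J1 shares are of totals that include unaligned reads, so the bases are unlike. All 45 genes had a read in CCE replicate 1 and 42 in both CCE libraries. Of the 45, 18 (40%) reached 1 CPM in both CCE libraries. This share was 37.6% over all 37310 genes and 4.36% (915) over the 20967 other genes silent in the J1 control. Those other genes had not reached the 5 CPM of the rule in both Ccnb1 libraries. With no CCE control, whether the CCE levels of the 45 differ from those of untreated CCE cells was not tested. The 2 lines were counted at different depths. Zc3h12c stood at 19.6 and 15.9 CPM in CCE, Gm2016 at 22.8 and 11.0 CPM, Med12l at 7.80 and 8.06 CPM and Hoxa7 at 6.59 and 6.26 CPM. These 4 genes were the ones at 5 CPM or more in both. Per length, Gm2016 stood at 9.57 CPM per kb, Hoxa7 at 3.16 and Zc3h12c at 2.62, averaged over both libraries.

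The 2 CCE libraries differed from each other at these genes. Among the 35 with at least 10 reads in a CCE library, the ratio of replicate 1 to replicate 2 (each count plus 1, scaled by depth) had a median of 2.12, and 24 (68.6%) were at 1.5 or more. Over all 16626 genes with that many reads the median was 1.01 and 8.98% were at 1.5 or more, and over the other genes silent in the J1 control the median was 1.13 and 28.5% were. The labels put both libraries in 1 group.

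The ratio varied widely within the set. The 9 measured genes of the 2-cell-like list stood at 1.6 to 3.73, from Arg2 to Pramef25, with Tmem92 at 3.15, Spz1 at 2.43 and Zfp352 at 2.00. The 4 dropped Zscan4 and Usp17l genes stood at 3.49 to 3.96. The 17 further genes on the 2-cell-like list with enough reads, none of them among the 45, had a median of 1.07, and 5 (29.4%) were at 1.5 or more, a share near that of the other genes silent in control.

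The 8 measured genes known by identifier only had a median of 2.97. The 18 measured genes with a symbol that are not on the 2-cell-like list had a median of 1.42, and 8 (44.4%) were at 1.5 or more. Their highest were Gm12724 at 12.8 (11 reads against 0), Gm11784 at 4.45, Gm12800 at 3.72, Spesp1 at 3.20 and Chrm3 at 2.93. Their lowest were Slc4a4 at 0.764, Chml at 0.789, Med12l at 0.969, Chrna7 at 1.02, Hoxa7 at 1.05 and Tacr3 at 1.07, for which the CCE libraries were close to equal or replicate 2 was higher. The range outside the list thus covered the range within it. The CCE libraries also differ in depth, whose part in this was not tested.

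**Figure D4:**
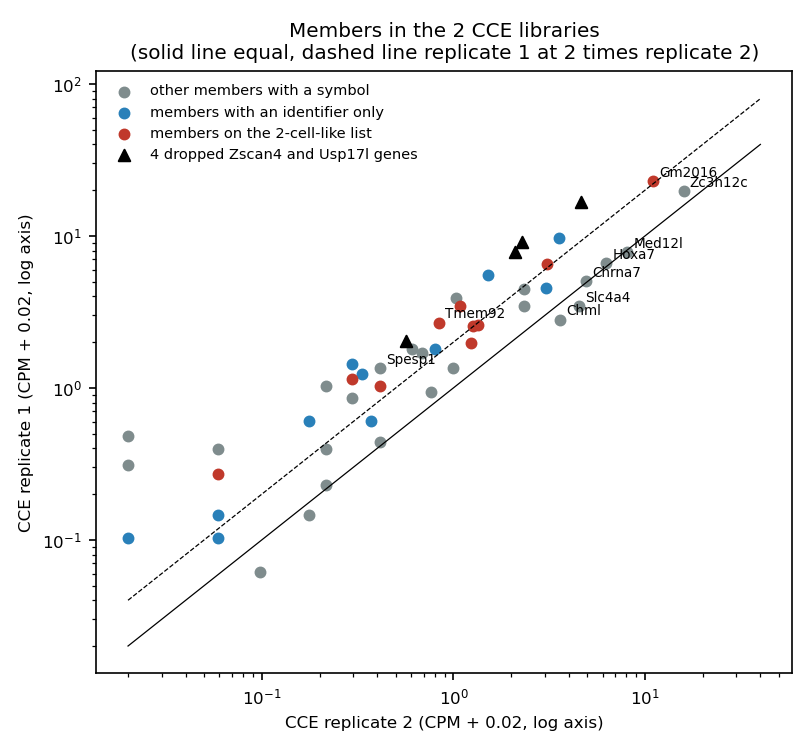
Level of each of the 45 genes in CCE replicate 2 (x axis) and replicate 1 (y axis), as CPM + 0.02 on log axes, with 2-cell-like genes in red, genes known by identifier only in blue, others in grey and the 4 dropped Zscan4 and Usp17l genes as triangles. The red points and triangles lie near or above the dashed line of a ratio of 2, while Chrna7, Hoxa7, Med12l, Slc4a4 and Chml lie near the solid line of equal levels.

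Lists for other cell types and states gave none of the 45 genes: oocyte and maternal-effect genes, X-linked Rhox, Xlr and Mage genes, Y-linked genes, trophoblast, endoderm, neural, muscle, blood, keratinocyte and fibroblast markers, interferon response genes, pluripotency markers and p53 targets. Some of these were silent in control and stayed under the rule, such as 29 of 42 oocyte genes and 37 of 41 Rhox, Xlr and Mage genes. The Rhox, Xlr and Mage genes summed to 2.96 and 1.92 CPM in control, 17.3 and 19.5 CPM in the labelled knockdown and 14.3 and 11.3 CPM in the Ccnb1 group. The p53 target list, all 19 genes of which were read in each J1 group, summed to 1897 and 1809 CPM in control, 5180 and 5200 CPM in the labelled knockdown and 3495 and 3448 CPM in the Ccnb1 group, so the order of these groups was not that of the 45 genes.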

How the data were processed

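Poly-A RNA was sequenced from 8 libraries of mouse embryonic stem cells. Each file deposited by the authors holds raw counts by Ensembl gene and 5 summary rows of no gene, left out of totals and tests. HTSeq 0.11.2, edgeR 3.26.8, Bowtie2 2.3.4.3, SAMtools 1.9 and mm9 appear in the submitters' processing notes, with no roles, settings or strand handling, so reads of overlapping and antisense genes cannot be told apart. Levels are CPM of all gene counts. Symbols were matched by identifier for 32620 of 37310 genes.

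Tests across genes used edgeR 4.0.16 in R 4.3.3: the two-sided quasi-likelihood F test with TMM scaling, the filterByExpr filter, 1 fit over the 6 J1 libraries without a replicate block, and Benjamini-Hochberg adjustment called at 0.05 over the 14462 genes tested. The SE is the log2 difference over the square root of F. The script of the edgeR test was run first on simulated counts. Alternatives were DESeq2 1.42.0, other scalings and filters, fits to 2 groups, a replicate block and each library left out. Ratio intervals are exact conditional binomial intervals at 95%, and a group at 0 was set to a floor of 3 counts over the group. The counts are of reads, without molecular identifiers, so reads are not independent molecules and intervals cover counting error only. Similar transcripts (90% identity over 300 bases) were found in GENCODE M21 with BLAST 2.17.0. Its build is not that of the files, so no coordinates but those of RefSeq promoters (GRCm38.p6) are printed, from the start with most CG where a gene has several.

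The genes and lists were chosen with earlier results of these data known. The rule for named genes took the 15 with the highest mean in the Ccnb1 group and the 10 with the highest mean in the labelled knockdown among genes with an official symbol, the 8 highest in CCE, those on a list, those nearest the threshold and those beside each other in gene order. The other predicted genes, Cntnap3, Apol7b and ENSMUSG00000091647 were named after their values were seen. Of the genes that the rule named, 1 is not reported here. The lineage factors and imprinted genes left out came from lists written for this work.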

Additional observations from a re-analysis of the deposited data

How the results depend on the processing

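The number of genes depended on where the rule drew its borders. It was 21 with no read allowed in control, 114 with up to 10 reads, 141 at 2 CPM and 22 at 10 CPM, against 45, and 48 with CPM over TMM-scaled totals. Leaving out 1 of the 4 libraries that the rule uses gave 55 to 91 genes, and 45 of the 91 found without control replicate 2 also passed in that library. Genes at 1 CPM or more in CCE numbered 18 to 29 with 1 CCE library left out, and 29 is the number in replicate 1 alone. For the labelled knockdown against control, where edgeR called 4 of the 45, a fit to the 2 groups alone called 2, with 4 of the 45 left to test, DESeq2 called 13, and fits leaving out 1 library called 2 to 16. For the Ccnb1 group against the labelled knockdown, where 26 were called, the filter at a mean of 5 CPM called 8 with 18 left to test, and fits leaving out 1 library called 1 to 40. Of all genes tested, the fit to the 2 groups alone called 13.2% and DESeq2 40.3% for the labelled knockdown against control. The filter at a mean of 5 CPM called 42.3% for the Ccnb1 group against the labelled knockdown. Where 1 library of a group was left, its spread was taken from the other groups.

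Same-numbered libraries share only a number: the labels give no pairing, and deviations of same-numbered libraries correlated across 14462 genes at -0.03 to 0.03. With the replicate number as a block, 3 of the 45 were called in the labelled knockdown against control and 8 in the Ccnb1 group against the labelled knockdown. Of all genes tested, 18.2% and 28.9% were called in the respective comparisons with this block.

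Among values of single genes, 452 kept their direction and side of the threshold, 5 that had not passed it became 0 where the labelled knockdown library with reads was left out, 33 passed it where they had not, 52 no longer passed and 7 changed sign. Without labelled knockdown replicate 2, the log2 difference of the labelled knockdown from control turned to -3.96 for Chrna7, -3.58 for Gm12794 and -3.57 for Gm2016, and that of the Ccnb1 group from the labelled knockdown to -0.62 for Med12l. Without replicate 1 the former turned to -2.17 for Hoxa7, -3.93 for Med12l and -2.20 for Terb2. Over the fits with 1 library left out, these values were the lowest, and the highest were 3.86 for Chrna7, 8.57 for Gm12794, 5.17 for Gm2016, 6.49 for Hoxa7, 5.12 and 8.41 for Med12l in the respective comparisons, and 5.64 for Terb2. None of these 7 reversed values passed the threshold, and each gene had reads in 1 of the 2 labelled knockdown libraries. At the depth of the labelled knockdown, 3 reads equal 0.682 and 0.834 CPM, so lower levels were not detectable there. A count of 0 in 1 of these libraries does not bound a level at those values. Med12l stood at 12.1 CPM in replicate 1 and at 0 in replicate 2, and Gm12794 at 0 and 17.8 CPM. Why these libraries lacked reads of such genes was not tested.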
